A study of Homo sapiens with 8 samples.

Results

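Gene expression was compared between A549 cells, an established line from a human lung carcinoma, that were exposed to 5 μg/mL EEDS and A549 cells that were exposed to the vehicle alone. EEDS is an ethanol extract of the seeds of Descurainia sophia, and 5 μg/mL was the middle of its 3 doses. The genes described are those whose probe was called well above background by the scanner software on both arrays. There were 13129 such genes of 19056 with a probe on the array. The whole study held 8 one-colour arrays, in an EEDS series (vehicle, 1.25, 5 and 20 μg/mL) and a helveticoside series (vehicle, 3.75, 15 and 60 nM), and all 8 were of A549 cells. There was 1 array per condition, with the RNA of 3 cultures pooled on it, so the comparison has no replicate error and no test, and its precision is limited by this number of arrays. The paper states 24 h of exposure for the arrays. The labels state 48 h in a protocol that describes a viability assay, after 24 h of culture. A gene was counted as changed when it was more than 2-fold higher or lower than on the vehicle array, that is, past 1 on the log2 scale.

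The seeds of D. sophia contain cardiac glycosides, among them helveticoside. Cardiac glycosides bind the sodium pump, the membrane ATPase that exports sodium and imports potassium, and raise sodium and calcium inside the cell. In cultured human cells such compounds are known to induce immediate early genes, which code for short-lived transcription factors, and to depress protein synthesis. The integrated stress response is a further known reaction of cells to amino acid shortage and to misfolded protein, in which the transcription factor ATF4 switches on genes for amino acid synthesis and uptake.

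Probe spots had a median signal of 182 (vehicle) and 186 (5 μg/mL), within the 182 to 278 of all 8 arrays, over a local background of 27 on both. No spot was saturated, and 64.9% and 63.8% of the probes were well above background. Repeated spots of a probe had a median log2 SD of 0.06 and 0.05, a measure that holds no error between arrays or cultures. The lowest signal called well above background for a gene was 4.56 (MMP23B) on the vehicle array and 4.79 (GFRA4) at 5 μg/mL on the log2 scale, and the highest signals not called were 5.42 (AATK) and 5.56 (OR7C2). Because the signals are relative to all RNA on an array, fewer cells expressing a gene and less of its RNA per cell cannot be told apart.

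The identity of the cells was checked on marker genes. Of 9 epithelial markers, 8 were well above background on the vehicle array and 9 at 5 μg/mL, with a summed signal of 880272 and 832278, and the keratins KRT7, KRT8 and KRT18 were well above background on both arrays. Of 9 alveolar markers, 5 and 4 were well above background, and their summed signal was 2535 and 981. SFTPA1 and SFTPB (surfactant proteins), NKX2-1 and LAMP3 were not well above background on either array, whereas SFTPC and NAPSA were dim but well above it on both, between 5.75 and 6.48 on the log2 scale. ABCA3, a lipid carrier of alveolar type II cells, read 11.11 and 9.10, and AGER, a marker of alveolar type I cells, 6.46 and 7.81. Of 8 hematopoietic markers, 5 and 4 were well above background, and their summed signal was 3299 and 1039.8. CD14, a coreceptor for bacterial lipopolysaccharide, carried most of that sum and read 11.46 on the vehicle array and 9.43 at 5 μg/mL on the log2 scale, and PTPRC, CD3D and TYROBP were dim but well above background on both arrays, between 5.61 and 7.39. CD3E and MS4A1 were not well above background on either array. Endothelial and fibroblast markers were well above background for 1 of 5 and 1 of 6 genes on the vehicle array and for 1 and 2 at 5 μg/mL. The part of other cells in the values that follow was not tested.

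At 5 μg/mL EEDS, 997 of the 13129 genes (7.59%) exceeded the vehicle array by more than 2-fold and 1089 (8.29%) were more than 2-fold below it. A 4-fold difference was passed by 136 genes (1.04%) upward and 158 genes (1.2%) downward, and an 8-fold difference by 25 and 26 genes. The median log2 ratio of all the genes was -0.0015 and their SD 0.77, and 63.4% of them lay within 1.5-fold of the vehicle array. The vehicle arrays of the EEDS and helveticoside series are the only pair that differ by no drug. Between them, 457 of 12255 genes were more than 2-fold higher on the helveticoside vehicle and 179 were lower, with an SD of 0.49. The same 12255 genes at 5 μg/mL gave 865 higher and 1066 lower, with an SD of 0.76. Detection on the helveticoside vehicle, which these counts require, took out more of the higher genes than of the lower ones.

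The vehicle pair had most of its ratios past 2-fold among dim genes. In the third of genes with the highest signal, 291 of 4377 were higher and 262 lower at 5 μg/mL, against 58 and 31 of 4377 between the vehicles. In the third with the lowest signal, 346 of 4377 were higher and 435 lower at 5 μg/mL, against 286 and 93 of 3503 between the vehicles. Among the genes with a signal between these, 360 of 4375 were higher and 392 lower at 5 μg/mL, against 113 and 55 of 4375 between the vehicles. For dim genes, a ratio 2-fold above the vehicle was about as frequent in the vehicle pair. That pair holds only genes also well above background on the helveticoside vehicle. The lowest log2 signal called for a probe was 5.55 there and 4.55 on the EEDS vehicle. Dim genes that read lower there could drop out, so these counts are not a measured rate without a drug.

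**Figure D1:**
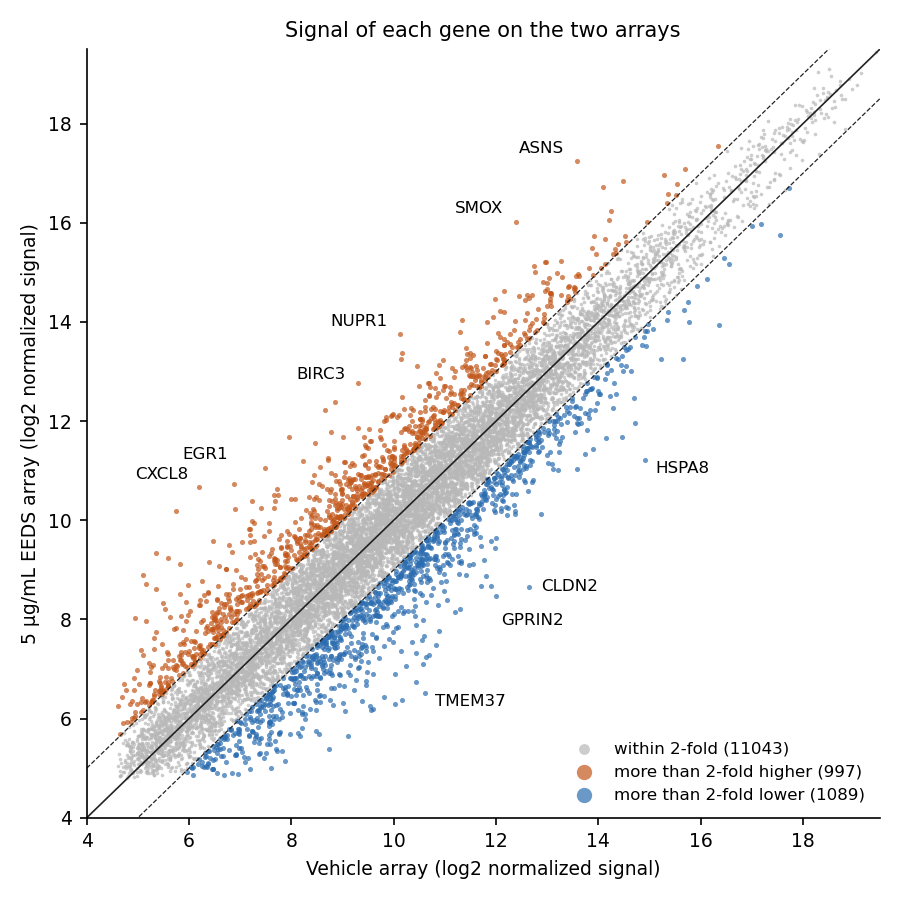
Each point is a gene well above background on both arrays, with its log2 normalized signal on the vehicle array (x) and at 5 μg/mL EEDS (y), and the dashed lines mark a 2-fold difference. The 997 genes above and 1089 genes below these lines spread over the whole range of signal, from dim genes such as CXCL8 to bright ones such as ASNS and HSPA8.

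**Figure D2:**
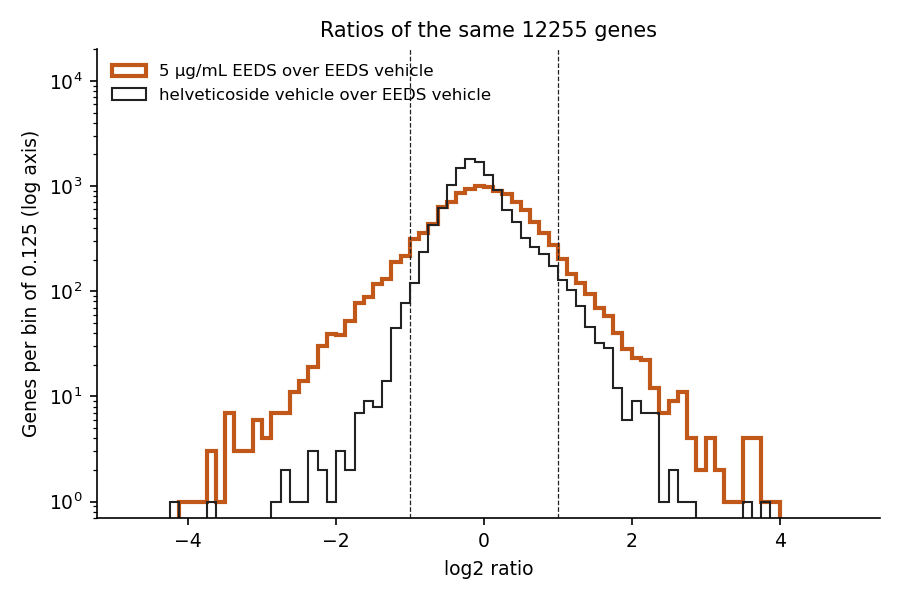
The histogram gives the number of genes (log axis) per bin of log2 ratio for the same 12255 genes, with 5 μg/mL EEDS over the EEDS vehicle in orange and the helveticoside vehicle over the EEDS vehicle in black. The EEDS ratios are wider (SD 0.76) than those between the vehicles (SD 0.49). Beyond 2-fold lie 1066 genes against 179 on the lower side and 865 against 457 on the higher side. The sides cannot be compared, because the genes were also required to be well above background on the helveticoside vehicle.

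The highest ratio was that of CXCL8, which codes for the neutrophil chemokine interleukin 8. It read 6.20 on the vehicle array and 10.66 at 5 μg/mL on the log2 scale, a log2 ratio of 4.46 or 22.1-fold. ULBP1, a stress ligand recognized by natural killer cells, read 5.76 and 10.19 (log2 ratio 4.44), and CD274, the checkpoint ligand PD-L1, 5.58 and 9.23 (3.65). These genes were dim on the vehicle array and, together with TXNIP, not well above background on the helveticoside vehicle, so their folds rest on signals near the limit of detection. BIRC3, an inhibitor of apoptosis that acts in NF-kappa B signaling, read 9.30 and 12.76 (3.47).

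ASNS, asparagine synthetase, was already bright on the vehicle array at 13.58 and read 17.24 at 5 μg/mL, a log2 ratio of 3.66 or 12.6-fold. NUPR1, a small stress-induced chromatin protein, read 10.12 and 13.75 (3.63), and CHAC1, which degrades glutathione, 8.66 and 12.23 (3.57). SMOX, spermine oxidase, read 12.38 and 16.03 (3.64). TXNIP, which binds thioredoxin and limits glucose uptake, read 5.10 and 8.90 (3.80). For ASNS, NUPR1, CHAC1 and SMOX the log2 ratio between the vehicle arrays lay between -0.21 and 0.46, well below the ratio at 5 μg/mL.

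The transcription factors among the 15 highest ratios were FOSB, EGR1 and ATF3. FOSB, a partner of JUN in the AP-1 factor, read 5.36 and 9.35 (3.99), and EGR1, a zinc finger factor of the early growth response, 6.88 and 10.73 (3.85). ATF3, a stress factor of the ATF family, read 8.86 and 12.39 (3.54) by its brightest probe, whereas 2 other probes of the gene gave log2 ratios of 1.37 and -0.09. The value of ATF3 therefore depends on the probe. LY6K, a GPI-anchored surface protein, had a log2 ratio of 3.57. GUCA1B, a guanylate cyclase activator of the retina, had 3.56 by its brightest probe and 1.31 by another. Both of these probes read 5.16 on the vehicle array, near the limit of detection.

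The lowest ratio was that of TMEM37, a membrane protein, which read 10.61 on the vehicle array and 6.51 at 5 μg/mL, a log2 ratio of -4.09 or 17.1-fold lower. CLDN2, a claudin that forms cation pores in tight junctions, read 12.64 and 8.66 (-3.98). UCP2, an uncoupling protein of the inner mitochondrial membrane, read 10.02 and 6.29 (-3.73), and HSPA8, the constitutive HSP70 chaperone, was bright on both arrays and read 14.91 and 11.21 (-3.70).

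CRYM, a thyroid hormone binding protein, had a log2 ratio of -3.78, SALL2, a zinc finger factor, -3.70, and GPRIN2, a G protein regulator of neurites, -3.53. MAP2K6, the kinase that activates p38, had -3.39, VASH1, an inhibitor of angiogenesis, -3.39, and FBN2, a fibrillin of the extracellular matrix, -3.41. MPP2, a membrane scaffold protein, had -3.33, and LIAT1 and C3orf18 had -3.46 and -3.38. RNF213, a large ubiquitin ligase, had -3.42 by its brightest probe and -1.07 by another. All 14 genes named of this end were well above background on both vehicle arrays, and the log2 ratio between these arrays lay between -0.67 and 0.25.

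**Figure D3:**
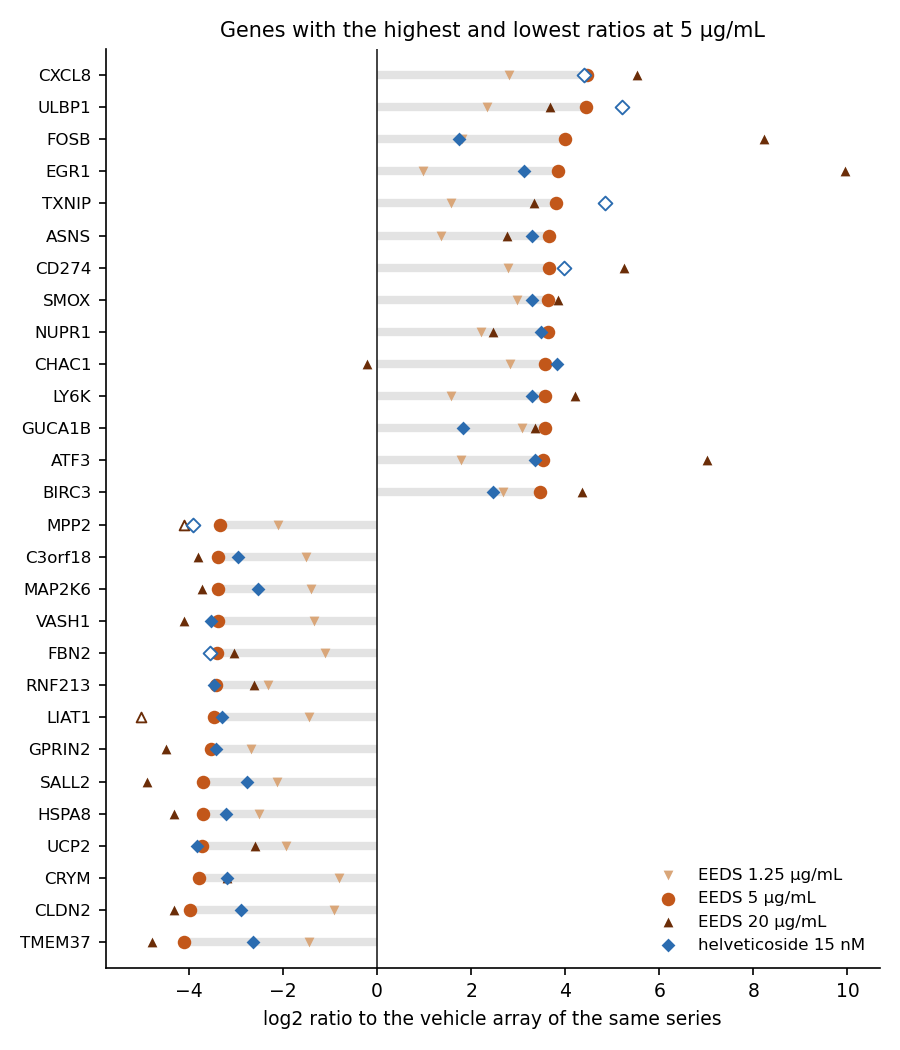
For 14 of the 15 genes with the highest and 14 of the 15 with the lowest log2 ratio at 5 μg/mL, the points give the log2 ratio to the vehicle array of the same series at 1.25, 5 and 20 μg/mL EEDS and at 15 nM helveticoside, and open points mark a ratio in which an array was not well above background. CHAC1 has 3.57 at 5 μg/mL and -0.21 at 20 μg/mL, whereas EGR1 goes on to 9.94.

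The promoters of 6 of the genes described are shown because they hold a motif of a factor that acts on stress or early response genes. The stretches are from the RefSeq promoter windows of GRCh38.p14, 5′ to 3′ on the strand of the gene, and capitals mark the motif matches: an AP-1 site and a TATA box for CXCL8, serum response element cores for EGR1, amino acid response elements for ASNS and CHAC1 (the reverse complement for CHAC1), NF-kappa B sites for BIRC3 and a heat shock element for HSPA8. A match is a description of the letters and does not show that a factor binds there.
CXCL8 (chr4:73740419-73740568, plus strand): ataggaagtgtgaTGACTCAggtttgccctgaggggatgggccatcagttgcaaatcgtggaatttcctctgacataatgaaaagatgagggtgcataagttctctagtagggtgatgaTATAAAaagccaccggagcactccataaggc
EGR1 (chr5:138465359-138465438, plus strand): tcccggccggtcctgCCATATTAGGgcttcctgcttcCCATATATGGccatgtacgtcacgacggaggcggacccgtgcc
ASNS (chr7:97872439-97872518, minus strand): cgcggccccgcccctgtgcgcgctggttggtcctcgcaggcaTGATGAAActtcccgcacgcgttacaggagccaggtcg
CHAC1 (chr15:40953231-40953320, plus strand): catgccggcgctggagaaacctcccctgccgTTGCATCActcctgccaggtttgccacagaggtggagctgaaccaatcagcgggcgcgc
BIRC3 (chr11:102317274-102317373, plus strand): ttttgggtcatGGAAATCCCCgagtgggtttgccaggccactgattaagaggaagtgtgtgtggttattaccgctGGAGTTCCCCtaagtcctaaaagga
HSPA8 (chr11:123062137-123062216, minus strand): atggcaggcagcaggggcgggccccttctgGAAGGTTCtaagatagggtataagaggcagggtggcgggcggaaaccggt

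Genes of the integrated stress response were higher as a group. Of 30 measured members of this list, 15 were more than 2-fold higher and 0 lower, beside the 7.59% and 8.29% of all genes, and the median log2 ratio was 1.03 beside -0.0015. The counts of every list that follows are to be read beside the same 7.59% and 8.29%. Beside ASNS, NUPR1 and CHAC1, the list held the phosphatase subunit PPP1R15A, which reverses the phosphorylation of eIF2α and read 7.74 and 10.51 (2.77), and the transcription factor DDIT3 (CHOP), which read 7.20 and 9.70 (2.50). The secreted stress protein GDF15 read 14.48 and 16.84 (2.35). The serine synthesis enzymes PSAT1 and PHGDH had log2 ratios of 2.22 and 2.19, and TRIB3, a pseudokinase, 1.996. ATF4 itself had 0.65, and ATF5 -0.99. STC2, a secreted glycoprotein of the list, was not well above background on the vehicle array and was at least 21.1-fold higher. The median of the list was -0.28 between the vehicles and 1.504 against the helveticoside vehicle.

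Carriers and enzymes that handle amino acids went the same way in part. Of 22 amino acid carriers, 11 were more than 2-fold higher and 2 lower. SLC1A4, a carrier of alanine and serine, read 7.20 and 9.56 (2.36), and SLC1A5, the glutamine carrier, 11.42 and 13.48 (2.06). SLC38A2 had 1.81, SLC7A1 1.70 and SLC7A5 1.14. The carriers that were lower were SLC43A2 with -1.92 and SLC38A10 with -1.28 by its brightest probe and 0.018 by another. Among 19 aminoacyl-tRNA synthetases, 4 were higher, namely those for glycine, tyrosine, alanine and serine (GARS1 1.43, YARS1 1.38, AARS1 1.11 and SARS1 1.03), and the glutamine enzyme QARS1 was lower (-1.31). BCAT1, a transaminase of branched-chain amino acids, had 2.04.

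Immediate early transcription factors were higher for 16 of 33 measured members and lower for 1, with a median log2 ratio of 0.96. After FOSB, EGR1 and ATF3, the largest ratios were those of MAFF, a small MAF factor that read 7.66 and 10.52 (2.86), FOSL1, which read 8.41 and 10.78 (2.37), and JUN, which read 9.52 and 11.84 (2.32). KLF4 had 2.11 and JUNB 1.71. The member that was lower was BATF3 (-1.10), a factor of dendritic cells, which was within 2-fold against the helveticoside vehicle. The FOS gene gave 0.59 and MYC -0.04, although MYC had 0.91 against the helveticoside vehicle. EGR2, EGR3 and NR4A3 were not well above background on either array. EGR4 was well above background at 5 μg/mL only and was at least 2.25-fold higher.

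Feedback inhibitors of the ERK pathway were higher for 6 of 17 genes, and 0 were lower. DUSP1, a phosphatase of MAP kinases, read 13.88 and 15.48 (1.60), DUSP5 11.11 and 12.58 (1.47) and DUSP6 12.002 and 13.26 (1.26). The receptor EGFR had 1.47 with 3 probes between 1.18 and 1.47, and its ligands EREG and AREG had 3.09 and 2.46. The ligand HBEGF was 5.24-fold higher by the plain ratio of its signals, but it was not well above background on the vehicle array. ERBB3, a receptor of neuregulins, was lower (-1.35).

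NF-kappa B subunits, inhibitors and targets were higher for 9 of 20 genes, with 0 lower and a median log2 ratio of 0.78. Beside BIRC3, the kinase MAP3K14 (NIK), which drives the noncanonical branch, read 10.49 and 12.72 (2.23), and the subunit RELB of that branch 12.62 and 14.54 (1.93). TNFAIP3 (A20), which ends the signal, read 5.87 and 7.55 (1.68). The inhibitors NFKBIE and NFKBIB had 1.49 and 1.38, while NFKBIA, the main inhibitor, had -0.05 and RELA 0.63. ICAM1, a common target, was not well above background on either array.

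Cytokines and chemokines were higher for 10 of 20 measured genes and lower for 1, with a median of 1.12 that ranged from 0.61 to 1.42 over the processing alternatives. IL11, an interleukin of the IL6 family, was bright and read 12.95 and 15.20 (2.25). LIF, of the same family, read 9.82 and 12.01 (2.19), and SOCS3, the inhibitor of its signal, 9.06 and 11.18 (2.13). The neutrophil chemokines CXCL1, CXCL5, CXCL2 and CXCL3 had 1.89, 1.73, 1.30 and 1.30, with another probe of CXCL1 at 0.85. CISH, an inhibitor of cytokine signals, was lower (-2.10). IL6, TNF and IL1B were not well above background on either array, and LTB (lymphotoxin beta) was at least 15.5-fold higher.

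Targets of p53 and GADD45 genes were higher for 14 of 26 genes and lower for 2, with a median log2 ratio of 1.20. CDKN1A (p21), which stops the cell cycle, read 7.18 and 9.83 (2.65), and BBC3 (PUMA), a trigger of apoptosis, 11.30 and 13.80 (2.50). GADD45A and GADD45B had 2.06 and 2.05, the nuclease AEN 2.23, the death receptors FAS and TNFRSF10B 2.03 and 1.78, and the kinase PLK3 2.02. MDM2, which degrades p53, had 0.64. Against the helveticoside vehicle, 1 of the 2 lower genes was past 2-fold.

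In the BCL2 family, 6 of 18 genes were higher and 2 lower, and they lay on both sides of cell death. Besides BBC3, the death promoters PMAIP1 (NOXA), BMF and BAK1 had 1.82, 1.63 and 1.30. The survival genes MCL1 and BCL2L2 had 1.67 and 1.21. MCL1 read 10.82 and 12.49. BOK and BCL2L11 (BIM) were lower (-1.28 and -1.43), but other probes of BCL2L11 reached -0.013. The median of the list was 0.37 beside 0.997 against the helveticoside vehicle.

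The cell cycle lists did not move as 1 block. Of 45 DNA replication genes, 0 were more than 2-fold higher and 10 lower, with a median of -0.72. A ratio below 0 was found for 39 of the 45, beside 6575 of all 13129 genes. The primase subunit PRIM1 read 10.91 and 9.02 (-1.89), the ligase LIG1 12.66 and 11.12 (-1.54), and the helicase subunit MCM4 11.63 and 10.19 (-1.43). GINS2 and GINS3 of the same helicase had -1.34 and -1.33. Of 46 mitotic genes, by contrast, 3 were higher and 0 lower, with a median of 0.15. The kinetochore genes CENPE and NUF2 had 1.42 and 1.28, and the kinase CDK1 had 0.91. With the helveticoside vehicle as control, 7 of the 10 lower replication genes stayed past 2-fold and their list had a median of -0.48, whereas 0 of the 3 higher mitotic genes stayed past 2-fold. The difference between the lists was not tested.

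The G1 genes were divided, with 4 of 21 higher and 5 lower. After CDKN1A, the inhibitor CDKN1C had 1.15. The inhibitor CDKN2C had -1.69, the cyclins CCNE2 and CCND3 -1.58 and -1.39, and the S phase factors E2F2 and E2F1 -1.36 and -1.19. CCND1 read 10.89 and 11.69 (0.80), within 2-fold. CCNE2, E2F1, E2F2 and CCND3 did not pass 2-fold under at least 1 alternative. Against the helveticoside vehicle, 2 of the 5 lower genes stayed past 2-fold.

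DNA repair genes were lower for 13 of 50 members and higher for 1, with a median of -0.62. NTHL1, a glycosylase of oxidized bases, read 12.63 and 10.59 (-2.04), FANCF, of the Fanconi complex, 11.26 and 9.28 (-1.98), and EXO1, a nuclease of mismatch repair, 9.95 and 8.35 (-1.61). RAD51D had -1.77, MUTYH -1.55, XRCC1 -1.33 and MSH6 -1.10. TDG, a glycosylase of mismatched thymine, was the member that was higher (1.19). The vehicle pair gave a median of -0.08 for the list, and against the helveticoside vehicle the median at 5 μg/mL was -0.57.

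Heat shock proteins and co-chaperones were lower for 11 of 30 genes and higher for 2, with a median of -0.71 that stayed between -0.74 and -0.59 over the alternatives. The inducible HSP70 genes HSPA1A and HSPA1B, which are nearly identical and may share signal, read 14.47 and 11.69 (-2.79) and 13.58 and 11.04 (-2.54). The cytosolic HSP90 genes HSP90AB1 and HSP90AA1 had -1.74 and -1.38, and the small heat shock proteins CRYAB and HSPB1 -2.44 and -1.16. HSPD1, the chaperonin of mitochondria, had -1.07. The members that were higher were DNAJB2, a co-chaperone, at 11.98 and 14.46 (2.48), and HSPA13 (1.68). The heat shock factor HSF1 had -0.11.

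The chaperones and sensors of the endoplasmic reticulum lay mostly within 2-fold, as did the genes as a whole. Of 21 genes, 1 was higher (EDEM1, 1.33) and 3 were lower (SDF2L1 -1.18, MANF -1.08 and CRELD2 -1.08). These are 4.76% and 14.3%, beside 7.59% and 8.29% of all genes. HSPA5 (BiP), the main chaperone of that compartment, read 11.22 and 10.37 (-0.85), and XBP1 had 0.30. Of the 3 lower genes, 1 was past 2-fold against the helveticoside vehicle. The median of this list changed sign over the alternatives, from -0.09 to 0.21.

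Among metabolic genes, sterol and fatty acid synthesis was lower for 9 of 33 genes and higher for 0, with a median of -0.51. DHCR7, a reductase of cholesterol synthesis, read 13.67 and 11.97 (-1.70). ACAT2, MVK and NSDHL had -1.54, -1.47 and -1.21. SREBF2, the factor that switches on sterol synthesis genes, had 0.23. With the helveticoside vehicle as control, 6 of the 9 lower genes stayed past 2-fold and the median of the list was -0.29. Purine synthesis was lower for 4 of 13 genes and higher for 0, among them PFAS (-1.27) and ADSL (-1.17), and 1 of the 4 stayed past 2-fold with that control.

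NRF2 targets were lower for 5 of 28 genes and higher for 0. NRF2 is the factor that switches on genes against oxidants. CBR3, a carbonyl reductase, read 9.39 and 6.37 (-3.02), GPX2, a glutathione peroxidase, 14.71 and 11.95 (-2.76), and GCLC, which makes glutathione, 12.77 and 11.53 (-1.25). NQO1 had -0.35 and TXNRD1 0.47. Of the 26 aldehyde dehydrogenases and aldo-keto and carbonyl reductases, 4 were lower and 1 higher, the latter not against the helveticoside vehicle. A ratio below 0 was found for 23 of the 26, beside 6575 of all 13129 genes.

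Polyamine genes were divided, with 3 of 12 higher and 3 lower. After SMOX, the synthesis enzymes AMD1 and ODC1 had 1.96 and 1.54. The antizymes OAZ1 and OAZ2, which inhibit ODC1, had -1.20 and -1.34, and the oxidase PAOX -1.66, but other probes of PAOX reached -0.47. Genes of the liver type, which A549 cells express in part, were lower for 5 of 23 and higher for 0. NNMT, nicotinamide methyltransferase, read 16.36 and 13.95 (-2.41). Of the 5, 3 stayed past 2-fold against the helveticoside vehicle. BAAT, which conjugates bile acids, was at least 24.95-fold lower and not well above background at 5 μg/mL.

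Sodium pump and ion transport genes, the known targets of cardiac glycosides among them, were higher for 0 of 25 and lower for 2, beside 7.59% and 8.29% of all genes. The pump subunit ATP1B1 read 15.59 and 16.41 (0.81), within 2-fold. The epithelial sodium channel subunit SCNN1A had -2.03, and the calcium pump ATP2A2 -1.18 by its brightest probe and 0.50 by another.

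Genes of cell junctions and cell state were mixed. CLDN3 was lower (-1.77) like CLDN2, whereas CLDN1 was higher, at 10.91 and 12.88 (1.96). CDH1 (E-cadherin) read 9.91 and 7.60 (-2.31), KRT19 14.94 and 13.51 (-1.43), and VIM (vimentin) 17.42 and 16.86 (-0.57). The repressors of epithelial genes ZEB2 and ZEB1 had 1.30 and 1.01, close to the 2-fold limit for ZEB1. In the same list the keratin KRT80 was higher (1.20) and FN1 (fibronectin) lower (-1.05).

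YAP targets were higher for 7 of 16 genes and lower for 0, with a median of 0.70. The matricellular proteins CCN1 and CCN2 read 12.45 and 14.52 (2.07) and 10.32 and 12.12 (1.80). ANKRD1 had 2.09, the receptor kinase AXL 1.81 and LATS2, a kinase that inhibits YAP, 1.32. In the BMP and TGF-beta list, 6 of 31 were higher, led by the antagonists GREM1, at 8.47 and 11.55 (3.08), and FST (2.32), and 2 were lower, the ligand BMP4 (-1.83) and the pseudoreceptor BAMBI (-1.42). The antagonist NOG (noggin) was 21.7-fold higher by the plain ratio of its signals, but not well above background on the vehicle array.

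Wnt genes were higher for 2 of 22 and lower for 3, shares near the 7.59% and 8.29% of all genes, with AXIN2, a target of beta-catenin, among the latter at -2.47. DACT2, an inhibitor of that pathway, was at least 20.9-fold lower. Of 13 plasminogen activator and protease genes, 4 were higher and 1 lower. PLAU (urokinase) read 12.92 and 14.80 (1.88) and its receptor PLAUR had 1.15, whereas PLAT, the tissue activator, had -1.74. In the hypoxia list, 6 of 24 were higher, VEGFA with 2.06 among them, and 3 were lower, 0 of these against the helveticoside vehicle.

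Autophagy genes were higher for 7 of 31 and lower for 0. GABARAPL1, which coats the autophagosome, read 11.95 and 14.10 (2.15), MAP1LC3B 10.73 and 12.25 (1.52), and the kinase ULK1, which starts the process, 11.56 and 13.34 (1.78). Among the metallothioneins and zinc exporters, 4 of 10 were higher and 0 lower, all close to 2-fold, with MT2A at 1.21. Metallothioneins are similar in sequence and may share signal. Clock genes were higher for 3 of 16, PER1 with 1.70 among them, and lower for 1, DBP with -1.14, a call lost against the helveticoside vehicle.

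Nuclear factors beside these were mixed. Splicing factors and their kinases were lower for 7 of 33 and higher for 3. The SR proteins SRSF6 and SRSF2 had -1.61 and -1.60, and the kinases CLK4 and CLK1, which phosphorylate SR proteins, 1.87 and 1.56. Among histone modifiers, 3 of 38 were higher and 4 lower. KDM6B, a demethylase of histone H3, read 5.16 and 7.98 (2.82), and KAT14, an acetyltransferase, 11.71 and 8.67 (-3.04). Of 29 histone genes, 3 were higher and 0 were lower. HOX genes were higher for 2 of 27 and lower for 3, HOXB13 with -2.41. The shares of histone modifiers and HOX genes were near the 7.59% and 8.29% of all genes.

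Genes of the ribosome, the respiratory chain and the proteasome lay within 2-fold almost throughout. All 85 cytosolic ribosomal protein genes lay between -0.31 and 0.91, with a median of 0.17. By their brightest probes, the 77 genes of oxidative phosphorylation lay between -0.96 and 0.93, and the 42 proteasome genes between -0.95 and 0.53. UQCRB had 0.89 by its brightest probe but -1.88 by another. None of the 14 housekeeping genes passed 2-fold, and of 76 mitochondrial ribosomal protein genes 1 was higher (MRPL33, 1.04) and 1 lower (MRPL20, -1.003), neither of them against the helveticoside vehicle. With that control, 1 gene of oxidative phosphorylation was higher and 2 lower, and 2 proteasome genes were lower. The 355 zinc finger genes named by number were higher for 20 (5.63%) and lower for 26 (7.32%), near the 7.59% and 8.29% of all genes. The 154 long noncoding RNAs were higher for 9 (5.84%) and lower for 18 (11.7%). Among the noncoding RNAs, SERTAD4-AS1 had 2.98.

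**Figure D4:**
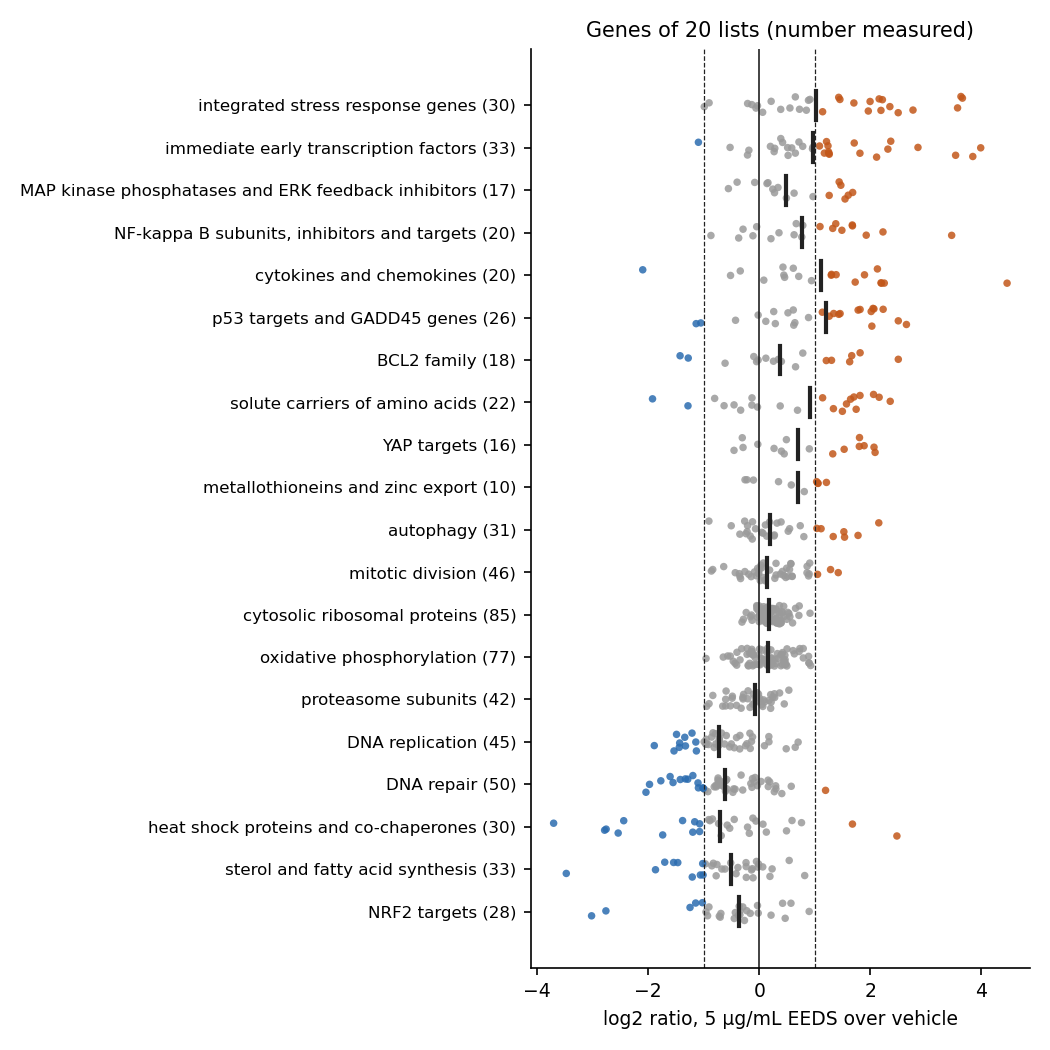
Each point is a measured gene of 1 of 20 lists with its log2 ratio at 5 μg/mL EEDS over the vehicle, orange where it is more than 2-fold higher and blue where it is more than 2-fold lower, and the black bar is the median of the list. The integrated stress response list reaches a median of 1.03 and the DNA replication list -0.72, whereas the ribosomal protein, oxidative phosphorylation and proteasome genes lie within the dashed 2-fold lines.

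For genes well above background on 1 of the arrays only, the fold is given as a bound. The bound divides the brighter signal by the dim one, or by the lowest signal called well above background on the dimmer array where that is higher. For C11orf96, NOG, HBEGF and MRAP2 the divisor was the dim signal itself, so their value is the plain ratio and not a lower limit. At 5 μg/mL only, 346 genes were well above background, and for 133 of them the bound was more than 2-fold. The highest value was that of C11orf96 (25.7-fold higher), and those of NOG, STC2, FUT1 (17.8-fold), which makes the H antigen of blood groups, and LTB followed. On the vehicle array only, 559 genes were well above background, 175 of them with a bound of more than 2-fold. After BAAT and DACT2, MRAP2, an accessory protein of melanocortin receptors, was 12.8-fold lower. PACSIN1 was at least 11.2-fold and TMEM45A at least 9.94-fold lower. The remaining 5022 genes were well above background on neither array.

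The other EEDS doses share the vehicle array with the 5 μg/mL array, so their ratios are set side by side and not as independent evidence. EGR1 had log2 ratios of 0.97, 3.85 and 9.94 at 1.25, 5 and 20 μg/mL, and FOSB 1.81, 3.99 and 8.24. ASNS had 1.37, 3.66 and 2.76, and CHAC1 2.82, 3.57 and -0.21. The highest of the 3 ratios of ASNS and CHAC1 was thus at the middle dose and that of EGR1 and FOSB at the top dose, although all were chosen by the middle dose. CLDN2 had -0.92, -3.98 and -4.33. The integrated stress response list had medians of 0.63, 1.03 and 0.57, and the immediate early list 0.61, 0.96 and 2.46. For heat shock proteins the medians were -0.29, -0.71 and -0.38.

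Helveticoside at 15 nM, the middle dose of its series, was measured against a vehicle array of its own. The doses are in different units and are not matched, so the values are given side by side. Of the genes described, 12041 were also well above background on those arrays, and 5.53% of them were more than 2-fold higher at 15 nM and 6.7% lower. Of the 865 that were higher at 5 μg/mL EEDS, 522 (60.3%) were also higher at 15 nM helveticoside and 1 was lower. Of the 969 that were lower, 610 (63.0%) were also lower and 2 were higher. The shared genes made up 78.4% and 75.6% of the genes higher and lower at 15 nM. Past 4-fold at 5 μg/mL, 104 of 108 genes (96.3%) were higher and 131 of 133 (98.5%) lower at 15 nM.

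By gene, ASNS had 3.66 at 5 μg/mL and 3.29 at 15 nM, EGR1 3.85 and 3.12, FOSB 3.99 and 1.74, HSPA8 -3.70 and -3.22, and UCP2 -3.73 and -3.83. The list medians were 1.03 and 1.17 for the integrated stress response, -0.72 and -0.65 for DNA replication and -0.71 and -0.73 for heat shock proteins. The genes past 2-fold in opposite directions were MAPT, MTBP and NEIL1. The agents were measured in separate series, so agent and series cannot be told apart.

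**Figure D5:**
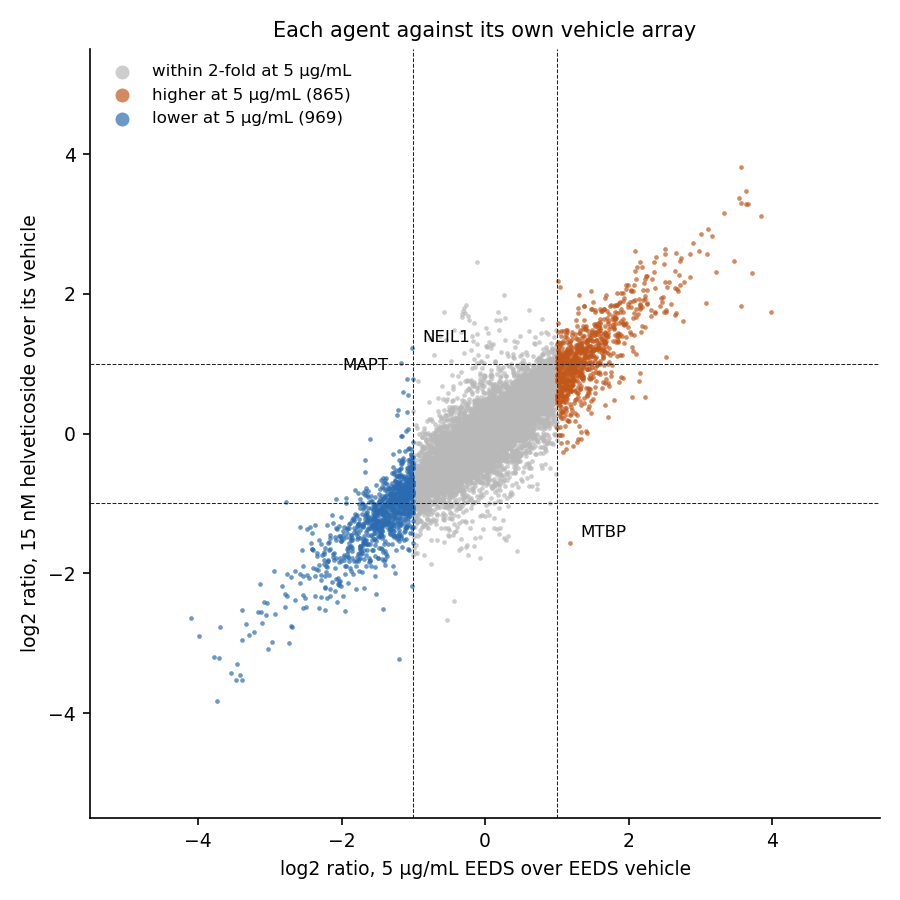
Each point is 1 of 12041 genes well above background on all 4 arrays, with its log2 ratio at 5 μg/mL EEDS over the EEDS vehicle (x) and at 15 nM helveticoside over the helveticoside vehicle (y), and dashed lines mark 2-fold. Of the 865 genes to the right of the lines, 522 lie above the upper line, and of the 969 to the left 610 lie below the lower line, while MAPT, MTBP and NEIL1 lie in the opposite corners.

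Promoter windows, from 250 bases before to 50 bases after the RefSeq start, were matched for 787 of the 997 higher genes, 853 of the 1089 lower genes and 10506 of all genes described. The cAMP response element TGACGTCA, searched on both strands like the other motifs, was in 10 of 104 promoters of genes more than 4-fold higher (9.62%). It was in 3.20% of the promoters of all genes described, in 1.98% of all 27305 RefSeq promoters and in 1.71% of those more than 4-fold lower. The 10 genes were MAF, MAFF, PPP1R15A, AREG, IFRD1, DDX10, EPHA2, IL32, MAPK8IP3 and GABARAPL1. An AP-1 site, TGANTCA, was in 14.4% of the promoters more than 4-fold higher, against 4.74% of all genes described. It was in 7.76% of all RefSeq promoters and in 5.13% of those more than 4-fold lower. For a TATA box, TATAAA, these shares were 14.4%, 6.53%, 11.95% and 6.84% in the same order.

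The amino acid response element, TGATGNAA, was in 6 of the 104 promoters (5.77%), those of ASNS, CHAC1, ATF3, FAM24B, BCAT1 and PLK3. It was in 1.74% of the promoters of all genes described and in 3.67% of all RefSeq promoters. Of the 117 promoters of genes more than 4-fold lower, 4 (3.42%) held it. In ASNS its match, at base -68 from the start, overlaps a match of the heat shock element GAANNTTC at base -64. The heat shock element was in 6.73% of the promoters more than 4-fold higher and in 5.98% of those more than 4-fold lower, HSPA8, HSPA1A and HSPA1B among them, against 4.74% of all genes described. The NF-kappa B site was in 6.73% and 6.84%, against 6.73%. The E-box CACGTG was in 8.65% and 10.3%, against 9.91%, and the EGR site in 9.62% and 7.69%, against 9.13%. The serum response element core was in 0.96% and 0%, against 1.03%, and the CCAAT box in 40.4% and 38.5%, against 36.8%. The amino acid response element, the CCAAT box and the TATA box were added to the search after the values had been seen.

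Agreement between probes limits the reading of single genes. Among 3140 genes with at least 2 probes well above background, the median range between the probes of a gene was 0.27 on the log2 scale. Of the 449 such genes past 2-fold by their brightest probe, 223 (49.7%) were past 2-fold in the same direction by all of their probes, 32 had a probe of opposite sign and 2 a probe past 2-fold the other way. A gene named here with 1 probe has no such check.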

How the data were processed

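RNA of 3 A549 cultures per condition was pooled, amplified with a single dye and hybridized to Agilent whole human genome arrays, 1 array per condition. For each spot the authors deposited scanner intensity: the median signal, the local background and a processed signal, from which the scanner software had subtracted the background, with its calls of outlier and well-above-background spots. The labels name the dye Cy5, whereas the deposited columns are those of the green channel, and the version of the scanner software is not given in the sources used here. A further table that the authors deposited holds intensity values they had processed. Its ranks follow the median signal minus the background on each array, its medians are near 121 for EEDS and 192 for helveticoside, and 555 and 816 values are blank on the vehicle and 5 μg/mL arrays. Whether its authors centred these values in a further step is unknown, and the table served as an alternative only.

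Here, the mean processed signal of a probe was taken over its spots, without control spots and outliers. Quantile normalization ran over all 8 arrays, and log2 values were used from there on. By accession, 24812 of 34105 probes matched 19056 RefSeq genes of GRCh38.p14, which served for names and promoters. The files name no genome build, and no gene coordinates are taken from them. Where a gene had several probes (4797 genes), its brightest probe over all arrays was used. A gene was well above background on an array when all usable spots of its probe were. Samples were mapped by agent and dose. Ratios are to the vehicle array of the same series. The tools were Python 3.11.15 with pandas 2.3.3, numpy 2.4.6 and scipy 1.17.1, matplotlib 3.10.9 for figures, and limma 3.58.1 in R 4.3.3 for normexp. The counting of genes past 2-fold and 4-fold was tested on simulated data.

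The genes described and the 55 gene lists were chosen with earlier results of these data known, and lists share members. The genes named are the 15 highest and 15 lowest ratios, the 5 highest bounds in each direction and, from each list, up to 6 members past 2-fold with the largest ratios and the members that define the list. A few further names were added where an account needed them. Some genes that these rules name are not reported here. Genes without a matched probe were not analysed here. The alternatives were other quantile normalizations, scaling to the 75th percentile, the signal as scanned, normexp with an offset of 50, the authors' table, outlier spots kept, the mean over probes, no filter, detection on all 8 arrays and the helveticoside vehicle as control.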

Additional observations from a re-analysis of the deposited data

Results flagged for a closer look

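MAPT, MTBP and NEIL1 drew attention because they were past 2-fold in opposite directions at 5 μg/mL EEDS and at 15 nM helveticoside, each against its own vehicle array. The difference was not tested, as each condition had 1 array. MAPT, which codes for the microtubule protein tau, read 7.41 on the EEDS vehicle and 6.24 at 5 μg/mL on the log2 scale (log2 ratio -1.17), and 6.48 and 7.48 in the helveticoside series (1.01). MTBP, an MDM2 binding protein, had 1.18 at 5 μg/mL and -1.57 at 15 nM, and its vehicle arrays differed by 1.79, more than either ratio, so that its ratio was -0.61 against the helveticoside vehicle. NEIL1, a DNA glycosylase, had -1.01 at 5 μg/mL and 1.23 at 15 nM, with vehicle arrays that differed by 0.036. Each of these genes has 1 probe.

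Probes matched to no gene also carried signal. There were 4087 such probes well above background on both arrays. At 5 μg/mL, 221 of them were higher and 193 lower by more than 2-fold, and 25 were higher and 23 lower by more than 4-fold. The probes A_33_P3363188 and A_23_P2414 had the highest log2 ratios, 3.86 and 3.70, and A_33_P3671291 and A_23_P26928 the lowest, -4.50 and -3.30.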

How the results depend on the processing

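The counts past 2-fold stayed within 1.5 times of 997 and 1089 under all 11 alternatives, from 689 and 736 with the signal as scanned to 1406 higher genes with the helveticoside vehicle as control and 1613 lower genes without a filter on dim probes. The authors' table gave 876 higher and 1180 lower genes. The counts past 4-fold depended more on the background. With the signal as scanned they were 74 higher and 67 lower, and with normexp and an offset of 50 they were 77 and 67. Without the filter they were 232 and 307, and when detection on all 8 arrays was required 101 genes were lower by more than 4-fold. The cause was not tested. For 273 genes past 2-fold that met the rules for naming or were named besides, 2799 of 2953 log2 ratios under these alternatives stayed past 2-fold in the same direction. Only that of MTBP changed sign, from 1.18 to -0.61 with the helveticoside vehicle as control. CDKN1A, ASNS and HSPA8 stayed past 2-fold under all 11 alternatives, whereas AKR1B1 did so under 4 and MRPL20 under 5. The settings without a filter and with detection on all 8 arrays change only which genes are kept, not the ratio of a gene. Their 273 and 235 values could therefore not move, and the tallies by gene include them. No paired analysis was possible because each condition had 1 array and the replicate numbers tie no arrays together. The signal over background limits what can be said of dim genes: 5022 genes were well above background on neither array, and their levels and ratios are not described.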

Other observations

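Gene groups not described so far, or only in part, are given here beside the 7.59% of all genes that were higher and the 8.29% that were lower at 5 μg/mL EEDS. Glycolysis genes were higher for 2 of 23, PFKFB4, a regulator of phosphofructokinase, with a log2 ratio of 1.93 and SLC2A1, the glucose carrier, with 1.31, and 0 were lower. Citrate cycle genes were lower for 2 of 24 (IDH1 -1.07 and FH -1.02) and higher for 0, but 0 genes of the list were lower and 2 higher against the helveticoside vehicle. The pentose phosphate pathway had 1 lower of 10, PGD at 15.67 on the vehicle array and 14.24 at 5 μg/mL (-1.43), and 0 higher, and PGD had -0.69 against the helveticoside vehicle. Fatty acid oxidation and branched-chain amino acid breakdown had 2 higher and 3 lower of 38, with ACOX2, a peroxisomal oxidase, at -2.94. Glutathione transferases and peroxidases had 2 lower of 21, GPX2 and GSTA4 (-1.28), and 0 higher. Of 8 genes of the aryl hydrocarbon receptor list, TIPARP alone was past 2-fold (1.52).

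The thioredoxin-interacting arrestins were higher for 2 of 8, TXNIP and ARRDC4 (2.08), and lower for 0. Both genes were dim on the vehicle array (5.10 and 5.32) and not well above background on the helveticoside vehicle. In the MYC network of 8 measured genes, MXD1 and MNT, which oppose MYC, were higher (1.71 and 1.27) and MYCL and MXD4 lower (-1.16 and -1.36). Another probe of MNT gave 0.42. Interferon response genes had 1 higher of 20, the peptide transporter TAP1 (1.52), and 1 lower, OAS1 (-1.75). HLA class II genes had 1 lower of 6, HLA-DMB (-1.81), and HLA-DRA and CIITA were not well above background on either array. Notch genes had 1 higher, the ligand JAG1 (1.08), and 1 lower, NOTCH3 (-1.68), of 15. The tight junction list had 3 higher and 3 lower of 19, the epithelial and mesenchymal list 3 and 3 of 18, and the EGF receptor list 3 and 1 of 8.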
